A study of Mus musculus with 20 samples.

Results

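The effect of a steatohepatitis-inducing diet on gene expression was measured in livers with a knockout of Pck1. The comparison set the 5 libraries of Pck1-cKO mice on the NASH diet (KO NASH) against the 5 libraries of Pck1-cKO mice on chow (KO chow), which are 10 of the 20 libraries in the series, and it was described across all 14440 genes with enough counts out of 46095 gene symbols. Pck1-cKO denotes a knockout confined to the liver, per the labels, and KO is used for it here. Both groups carried the knockout, were fed their diet over 24 weeks and had reached an age of 31 to 33 weeks. The other 10 libraries came from wild-type (WT) mice on the same diets, 5 on chow and 5 on the NASH diet, and they enter below only where the diet effect in KO is set beside that in WT. NASH stands for non-alcoholic steatohepatitis. The labels do not say what the NASH diet contains, and the column names of the deposited table call it HFD. No source used here gives the promoter that drives the recombinase or the deleted part of Pck1. The labels number the mice of a group 1 to 5 and say no more of the replicates, so the p-values measure the spread between these samples.

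Pck1 encodes the cytosolic phosphoenolpyruvate carboxykinase, which turns oxaloacetate into phosphoenolpyruvate and so links the tricarboxylic acid cycle to glucose production. In steatohepatitis, hepatocytes store triglyceride, macrophages and other immune cells collect, and stellate cells turn into myofibroblasts that lay down collagen. The hepatocyte is also the site of the urea cycle, of amino acid breakdown, of cholesterol and bile acid synthesis, and of most drug metabolism, and these functions are zoned along the liver lobule and differ between male and female mice.

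Expression is given as CPM, counts scaled to library size by edgeR, and the 5 values of a group are listed in the order of replicates 1 to 5. Pck1 itself was at 523, 458, 861, 762 and 528 CPM in KO chow and at 515, 518, 348, 300.4 and 542 CPM in KO NASH. In WT it was at 4242, 4641, 3406, 1707 and 3871 CPM on chow and at 2543, 1888, 2975, 1701 and 2344 CPM on the NASH diet. Every KO library was below every WT library, and Pck1 RNA was not absent. The counts do not show from which exons the remaining Pck1 reads came. Its diet effect in KO was a log2 fold change of -0.49 ± 0.28 (SE), with an adjusted p of 0.29 (edgeR), and the KO groups overlapped.

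Library totals ranged over 16688365 to 20601955 counts on chow and 14238430 to 18366600 counts on the NASH diet, and mitochondrial genes took 7.18% to 12% and 5.57% to 9.8% of them. The 10 tested hepatocyte markers, among them albumin, had summed levels of 60690 to 128500 CPM on chow and 80880 to 88480 CPM on the NASH diet, so the hepatocyte genes were abundant in all 10 libraries. Sex, which the labels do not give, was read from Y-linked counts. In KO chow, replicates 3 and 5 were female and the other 3 male, and in KO NASH replicate 2 was female and the other 4 male. KO chow replicates 4 and 5 stood apart from the other 8 KO libraries in the slope of expression on transcript length, at -0.25 and -0.28 against 0.07 to 0.19, and in their scaling factors, at 0.826 and 0.849 against 1.03 to 1.32. KO chow replicate 5 correlated least with its group (Pearson r of log2 CPM across genes 0.879 to 0.941). KO NASH replicates 1 and 5 were the most alike of any KO pair, with a chi-square per gene of 7.81 against 44.8 to 81.8 for the other KO NASH pairs, which still exceeds sampling noise, so both were kept.

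The NASH diet changed 475 of the 14440 tested genes in KO liver (3.29%, edgeR adjusted p under 0.05). Of these, 255 were called higher (1.77%) and 220 lower (1.52%). A change of at least 2-fold was seen in 188 of the raised and 141 of the lowered genes, and of at least 4-fold in 53 and 31. The median log2 fold change over all tested genes was -0.02. At an unadjusted p under 0.05, 1483 genes were higher (10.3%) and 1716 lower (11.9%). All 5 KO NASH libraries lay above all 5 KO chow libraries for 605 genes (4.19%) and below them for 623 (4.31%). Of the called genes, 190 of the raised and 174 of the lowered showed such separated groups.

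**Figure D1:**
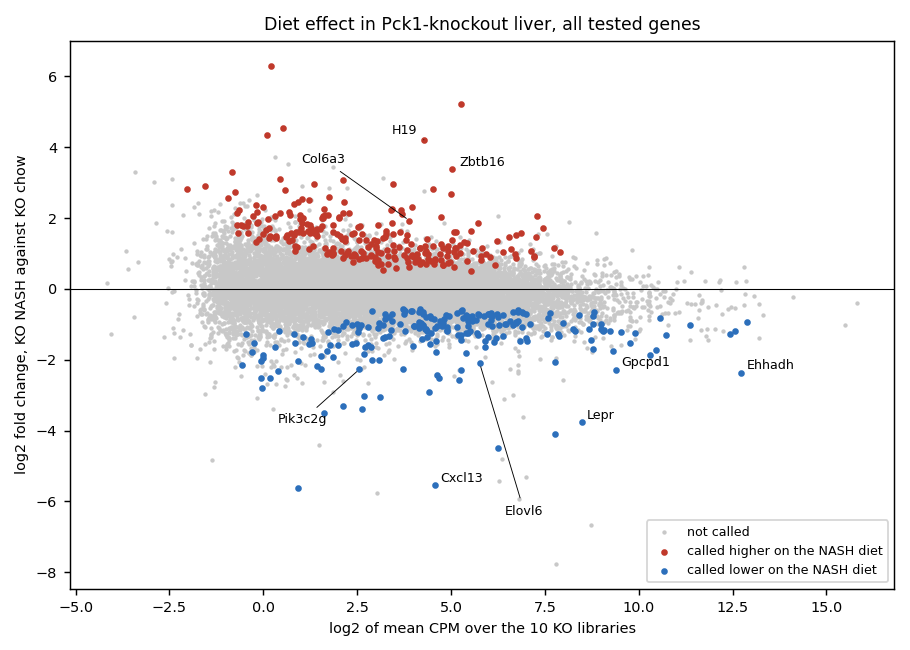
Diet effect in KO liver for all 14440 tested genes. The horizontal axis is the log2 of the mean CPM over the 10 KO libraries, the vertical axis is the log2 fold change of KO NASH against KO chow, and coloured points are the 255 genes called higher and the 220 called lower. Zbtb16 lies at 3.37 among the raised genes and Cxcl13 at -5.55 among the lowered ones.

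The number of called genes depended on single libraries. When KO chow replicates 1, 2, 3, 4 and 5 were dropped in turn the number was 162, 405, 784, 161 and 208, and it was 226, 215, 246, 198 and 147 for the KO NASH replicates in the same order, and 792 without WT NASH replicate 4, which enters the shared estimate of the spread. Of 78 called genes chosen by rule and reported here, 27 kept the call when any 1 of the 20 libraries was left out. These were Zbtb16, Slc13a3, Adamtsl2, Ppl, Col6a3, Pkhd1, Dkk3, Lepr, Hbb-bs, Gpcpd1, Pik3c2g, Elovl6, Kyat3, Asl, Aass, Ftcd, Dgat1, Ehhadh, Abcg5, Fmo4, Gstm3, Il1r1, Eda2r, Trp53inp1, ND5, Loxl1 and Tppp. Each of the others among the 78 lost its call in at least 1 of those 20 fits, and none of the 78 changed direction in any of them. Without KO chow replicate 5, 39 of the 78 kept the call. The ones that lost it were Tjp3, Synj2, Aox3, Cxcl13, Spic, Fpr2, Cgref1, Fpr1, Clec4a1, Pfkl, Fh1, Arg1, Elovl1, Plin2, Hsd17b11, Decr1, Abcb11, Cyp3a59, Cyp17a1, Sox9, Saa4, Hfe2, Slc39a14, Tsc22d3, Foxo3, Trib1, Ltbp3, Ltbp1, Cdkn1a, Col1a1, Col6a2, Mmp2, Thbs2, Timp2, Cx3cl1, Cmpk2, H2-Ab1, Fmn1 and Aqp4, and their values below include that library.

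The most raised and most lowered genes had to show no overlap between KO NASH and KO chow libraries. Their separate groups described below follow from this rule. Of 11 genes reported among the most raised, Zbtb16 (chr9:48651797-48836225, GRCm38) had the largest log2 fold change. This zinc-finger transcription factor, also called PLZF, was at 2.5, 4.54, 12.2, 3.12 and 6.2 CPM in KO chow and at 84.3, 35.2, 15.4, 71.4 and 91 CPM in KO NASH. Its groups were separate, with KO NASH replicate 3 close to KO chow replicate 3, and the log2 fold change was 3.37 ± 0.56 (SE, adjusted p = 0.00468, edgeR). Slc13a3, a sodium-coupled dicarboxylate transporter, was at 4.45, 4.22, 7.23, 1.74 and 0.911 CPM on chow and at 13.2, 23.9, 15.4, 18.9 and 15.9 CPM on the NASH diet (log2 fold change 2.22 ± 0.47, adjusted p = 0.0172). Slc13a3 was also the 1 called gene among the 17 pericentral hepatocyte genes tested. Adamtsl2, a secreted glycoprotein of the matrix that binds latent TGF-beta binding proteins, was at 4.49, 7.16, 5.89, 2.76 and 3.65 CPM on chow and at 26.9, 17.3, 14, 15.7 and 30.6 CPM on the NASH diet. Every KO NASH library of Adamtsl2 was above every KO chow library, and the log2 fold change was 2.12 ± 0.31 (adjusted p = 0.00191).

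Ppl, which encodes the desmosome-linked protein periplakin, was at 8.34, 12.9, 14.1, 8.49 and 8.39 CPM in KO chow and at 49.5, 45.7, 29.2, 35 and 53.7 CPM in KO NASH (log2 fold change 2.02 ± 0.33, adjusted p = 0.00468). Dkk3, a secreted protein of the Dickkopf family, was at 2.04, 3.42, 3.66, 1.89 and 2.25 CPM and at 12.7, 7.27, 5.84, 6.52 and 13.6 CPM (log2 fold change 1.79 ± 0.29, adjusted p = 0.00443). For both genes the groups were separate and KO NASH replicates 1 and 5 were the highest libraries. Col6a3, described with the collagens below, rose by a log2 fold change of 1.93. Pkhd1, which encodes fibrocystin, a protein of the primary cilium of bile duct cells, rose by 1.87, and Ppp1r3b, which targets protein phosphatase 1 to glycogen, rose by 1.87. The tight junction gene Tjp3 rose by 1.80, the inositol polyphosphate phosphatase gene Synj2 by 1.74 and the aldehyde oxidase gene Aox3 by 1.71, each on the log2 scale with separate groups.

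Among the lowered genes, Pik3c2g (chr6:139614072-139969284) had the smallest adjusted p of the genes named here. It encodes a class II phosphoinositide 3-kinase of the liver. Its level was 13.2, 11.9, 5.2, 7.62 and 10.9 CPM in KO chow and 1.88, 2.27, 1.43, 1.87 and 2.63 CPM in KO NASH, so that the highest KO NASH library was below the lowest KO chow library. The log2 fold change was -2.27 ± 0.29 (adjusted p = 0.000722), and in the male libraries alone it was -2.48 with an adjusted p of 0.0146 for Pik3c2g.

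Elovl6 (chr3:129532386-129638495), the elongase that makes stearate from palmitate, was at 155, 53.7, 88.2, 75.8 and 67.3 CPM in KO chow and at 14, 18.3, 29.9, 25.8 and 14.7 CPM in KO NASH. The groups were separate and the log2 fold change was -2.10 ± 0.30 (adjusted p = 0.00191). Lepr (chr4:101717137-101815352), the leptin receptor gene, was at 1124, 795, 459, 515 and 431 CPM on chow and at 83.6, 66.2, 7.95, 4.36 and 81.8 CPM on the NASH diet. KO NASH replicates 3 and 4 were the lowest for Lepr, far below the other 3, and the log2 fold change was -3.77 ± 0.71 (adjusted p = 0.0101). The counts do not separate the isoforms of Lepr. Gpcpd1, a glycerophosphocholine phosphodiesterase, was at 1353, 1181, 650.3, 1289.5 and 1126 CPM and at 420, 83.8, 112, 97.1 and 433 CPM (log2 fold change -2.29 ± 0.48, adjusted p = 0.0173). Its KO NASH replicates 1 and 5 were nearest to the chow group.

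Kyat3, a kynurenine aminotransferase, was at 248, 228, 187, 353 and 748 CPM in KO chow and at 102, 102, 75.3, 45.9 and 100.1 CPM in KO NASH, with no overlap (log2 fold change -2.05 ± 0.41, adjusted p = 0.0133). Cgref1, which encodes a secreted cell growth regulator, was at 31.9, 40.2, 20.9, 37.3 and 88 CPM and at 10.7, 4.4, 10.4, 4.22 and 8.75 CPM (log2 fold change -2.51 ± 0.56, adjusted p = 0.0228). The beta-globin gene Hbb-bs was at 62.7, 34.3, 55.4, 93.7 and 71.2 CPM in KO chow and at 11, 12.8, 15.5, 8.34 and 5.58 CPM in KO NASH (log2 fold change -2.57 ± 0.43, adjusted p = 0.00468). Its neighbour Hbb-bt fell by 2.00 on the log2 scale, and these near-identical genes can share reads. Together with 3 other red blood cell genes they summed to 89.5 to 181.6 CPM in KO chow and to 34.41 to 85.62 CPM in KO NASH. Of these 5 genes, 4 were below 0 and 1 was above 0, with a log2 fold change of 0.56. In bulk liver, fewer cells of a type and less RNA per cell cannot be told apart, which holds for every marker below.

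The remaining 5 of the 12 most lowered genes are known from myeloid and stromal cells, and their changes were smaller without KO chow replicate 5. Cxcl13, a chemokine that attracts B cells, was at 2.78, 3.1, 5.1, 36 and 184 CPM in KO chow and at 0.426, 0.812, 1.3, 1.96 and 0.453 CPM in KO NASH (log2 fold change -5.55 ± 1.24, adjusted p = 0.0219). KO chow replicate 5 was the highest by far and replicate 4 came next. Spic, a transcription factor of iron-recycling macrophages, was at 2.78, 3.3, 4.41, 10.3 and 55.9 CPM and at 2.17, 1.62, 1.61, 2.2 and 1.59 CPM (log2 fold change -3.05 ± 0.74, adjusted p = 0.0324). The formyl peptide receptor genes Fpr2 and Fpr1 had log2 fold changes of -3.01 and -2.27, and the C-type lectin gene Clec4a1 was 4.01-fold lower, all with the highest value in KO chow replicate 5. Without KO chow replicate 5 the log2 fold changes were -3.60 for Cxcl13, -1.51 for Spic, -1.39 for Fpr2, -1.18 for Fpr1 and -1.14 for Clec4a1, and none of these 5 genes was called.

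**Figure D2:**
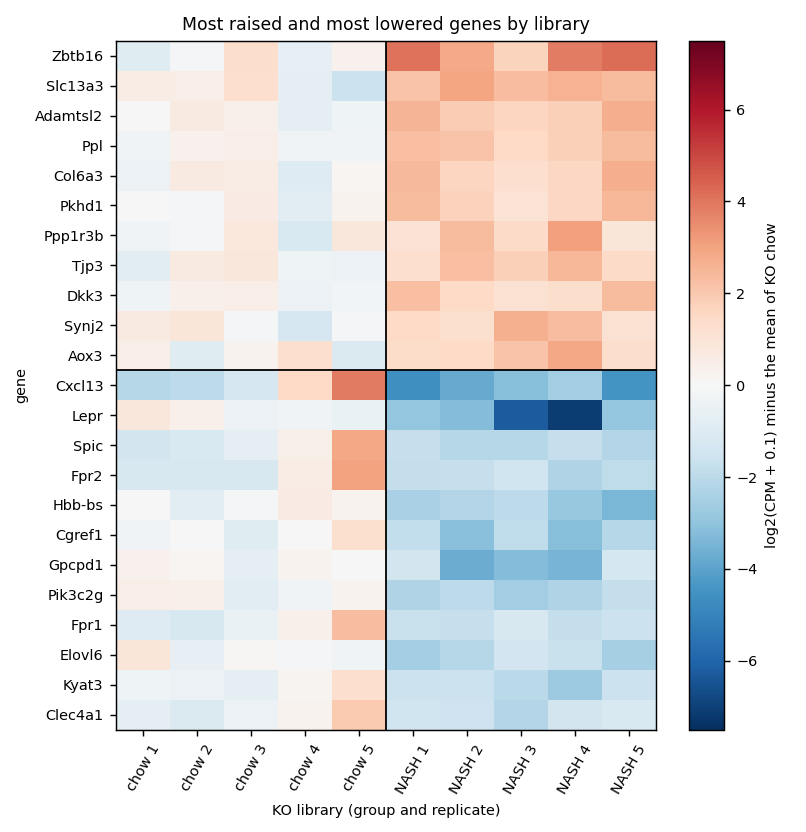
The 11 reported of the most raised genes and the 12 most lowered genes, 1 row per gene and 1 column per KO library. Colour is log2(CPM + 0.1) minus the mean of the 5 KO chow libraries. The rule that chose the 23 genes required all 5 KO NASH libraries to lie on the same side of the chow libraries. KO chow replicate 5 stands out in Cxcl13, Spic, Fpr2, Fpr1 and Clec4a1.

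Genes were then read by pathway, in 56 lists of functional groups and families and 15 lists of cell type markers. The 56 lists held 1036 distinct genes, of which 978 were tested and 31 were called higher and 29 lower. Each list is described by its counts and its median log2 fold change, beside the -0.02 of all tested genes, with no test of the list itself. With sex and length slope as terms, where 1353 genes were called in all, more members of several lists were called, among them 4 higher in cholesterol synthesis, 6 lower and 1 higher in fatty acid oxidation, and 7 higher among the p53 targets.

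In glucose metabolism the genes of glycolysis and fructose use moved in both directions, with 2 of 22 called higher and 1 lower. The liver phosphofructokinase gene Pfkl was higher, at 14.2, 17.8, 20, 22.1 and 13.2 CPM in KO chow and 33.6, 31.2, 39.9, 35.1 and 32.7 CPM in KO NASH (log2 fold change 0.98 ± 0.21, adjusted p = 0.0202). Among the 11 gluconeogenesis genes, Pck1 included, no gene was called, 3 were lower and 1 higher at an unadjusted p under 0.05, and the median was -0.55. The glucose 6-phosphate transporter gene Slc37a4 had a log2 fold change of -0.78 ± 0.26 (adjusted p = 0.0928), and the glucose 6-phosphatase gene G6pc had -0.83 ± 0.32 (adjusted p = 0.136). Gys2, the liver glycogen synthase gene, stood in no list and was picked after its values were seen. It was at 1098, 886, 920.2, 1284 and 734 CPM in KO chow and at 353, 234, 303, 199.8 and 356 CPM in KO NASH (log2 fold change -1.77 ± 0.23, adjusted p = 0.000788).

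Of 25 genes of the tricarboxylic acid cycle and of pyruvate dehydrogenase control, 3 were called lower and none higher, and 21 were below 0 (median -0.36). The fumarase gene Fh1 was at 730, 584, 436, 1085 and 836 CPM in KO chow and at 404, 313, 348, 202 and 346 CPM in KO NASH (log2 fold change -1.19 ± 0.32, adjusted p = 0.0484). Dlst, a subunit of the 2-oxoglutarate dehydrogenase complex, fell by 0.74 on the log2 scale (adjusted p = 0.025). In both genes the groups were separate. At an unadjusted p under 0.05, 10 of the 25 were lower and none was higher.

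The called genes of nitrogen metabolism were all lower. In the urea cycle, 2 of 8 tested genes were called lower and none higher (median -0.19). Asl, argininosuccinate lyase, was at 1503, 1246, 1194, 1616 and 949 CPM in KO chow and at 618, 319, 335, 354 and 651 CPM in KO NASH (log2 fold change -1.51 ± 0.31, adjusted p = 0.0162). Arg1, arginase, which makes urea, was at 2018, 1673, 1588, 2790.3 and 3940.4 CPM and at 1089, 1151, 689.6, 839 and 1081 CPM (log2 fold change -1.31 ± 0.36, adjusted p = 0.0472). Of the 26 genes of amino acid catabolism, 5 were called lower and none higher (median -0.20). Aass, which starts lysine breakdown, was at 3272, 2619.6, 876, 2285 and 856 CPM in KO chow and at 722, 402, 479, 430 and 699 CPM in KO NASH (log2 fold change -1.86 ± 0.35, adjusted p = 0.0101). The tyrosine pathway genes Hgd and Hpd fell by 1.23 and 1.02, the histidine and folate pathway gene Ftcd by 1.14, and the glyoxylate aminotransferase gene Agxt, which stood outside the naming rule and was picked after its values were seen, by 0.98, all on the log2 scale. Among 19 genes of methionine and one-carbon metabolism, Mat1a, the liver S-adenosylmethionine synthetase gene, was the 1 called, with a log2 fold change of -0.94 ± 0.26 (adjusted p = 0.0484).

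Fatty acid oxidation and ketogenesis showed 2 of 29 genes called lower and none called higher, with 27 below 0 and a median of -0.57. At an unadjusted p under 0.05, 13 were lower and none was higher. Ehhadh, the peroxisomal bifunctional enzyme, was at 13638, 14680.3, 3399, 11184 and 13635 CPM in KO chow and at 1799, 1844, 3734, 1818 and 1694 CPM in KO NASH. KO chow replicate 3 was below KO NASH replicate 3, so the groups overlapped, and the log2 fold change was -2.38 ± 0.48 (adjusted p = 0.0141). Decr1, the mitochondrial 2,4-dienoyl-CoA reductase gene, was at 601, 569.5, 433, 912 and 1182 CPM and at 320.2, 344, 370.3, 334 and 292 CPM with no overlap (log2 fold change -1.15 ± 0.30, adjusted p = 0.0404). Without KO chow replicate 5, 1 of the 29 was called. The 29 genes summed to 23300 to 46440 CPM in KO chow and to 16890 to 24770 CPM in KO NASH.

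Lipid droplet and triglyceride genes were also lower where they were called. Plin2, the coat protein of hepatocyte lipid droplets, was at 2217, 1859, 671, 1774 and 4227 CPM in KO chow and at 488, 655, 977, 669 and 469.8 CPM in KO NASH (log2 fold change -1.72 ± 0.41, adjusted p = 0.0287). KO chow replicate 3 lay within the KO NASH range for Plin2. The droplet-associated dehydrogenase gene Hsd17b11 fell by 1.21 on the log2 scale. Together they were the 2 called genes of 16 lipid droplet proteins, of which 13 were below 0 (median -0.63). Both calls were lost without KO chow replicate 5, and also with KO NASH replicates 1 and 5 added up, and with sex and length slope as terms 5 were called lower and 2 higher (median -0.37). Dgat1, which adds the last acyl chain of triglyceride, was at 66.7, 53.2, 37.3, 47.8 and 39.4 CPM and at 23.9, 21.4, 27.9, 20 and 22.4 CPM with separate groups (log2 fold change -1.08 ± 0.16, adjusted p = 0.00283), and it was the 1 called gene of 12 in triglyceride synthesis. Mttp, which loads lipid onto apolipoprotein B, was at 599.6, 595, 519, 549 and 675 CPM in KO chow and at 224, 303, 379, 371 and 216 CPM in KO NASH (log2 fold change -0.98 ± 0.20, adjusted p = 0.017), the 1 called gene of 17 in the apolipoprotein and lipoprotein assembly list.

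Of 18 fatty acid uptake genes none was called, and 6 were lower and none higher at an unadjusted p under 0.05 (median -0.60). The acyl-CoA synthetase gene Acsl5 had a log2 fold change of -0.87 ± 0.26 (adjusted p = 0.071). The fatty acid translocase gene Cd36 was at 898, 813, 781, 1501 and 2924 CPM in KO chow and at 532, 447, 613, 538 and 453 CPM in KO NASH (log2 fold change -1.42 ± 0.45, adjusted p = 0.0807). Every KO NASH value of Cd36 was below every chow value, with KO chow replicate 5 the highest. In de novo lipogenesis Elovl6 was the 1 called gene of 14 (median 0.05). Of 13 genes in a separate list of elongases and desaturases, Elovl1, which makes very long saturated chains, was called higher, at 19.4, 23.1, 21.8, 24.5 and 26 CPM in KO chow and 34.7, 31.9, 50.1, 37.6 and 35.1 CPM in KO NASH (log2 fold change 0.72 ± 0.18, adjusted p = 0.0333).

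Among 22 cholesterol synthesis genes none was called in KO, although 21 were above 0 and 6 were higher at an unadjusted p under 0.05 (median 0.51). Srebf2, the transcription factor of the pathway, was at 24.5, 25.6, 26.4, 11.4 and 16.4 CPM in KO chow and at 27.5, 38.3, 66.1, 39.4 and 30.2 CPM in KO NASH (log2 fold change 0.95 ± 0.33, adjusted p = 0.108), with no overlap. Fdps, farnesyl diphosphate synthase, was at 8.66, 7.84, 5.79, 9.29 and 17.3 CPM and at 11.9, 18.1, 61.8, 11.5 and 11.8 CPM (log2 fold change 1.24 ± 0.44, adjusted p = 0.113), and KO NASH replicate 3 alone was far above the chow range. Of 18 genes of cholesterol uptake, efflux and storage, 2 were called lower. Abcg5, one of the paired sterol exporters, was at 156, 105, 159, 172 and 244 CPM in KO chow and at 62.8, 66.9, 43.3, 68.2 and 60.1 CPM in KO NASH with separate groups (log2 fold change -1.47 ± 0.21, adjusted p = 0.00191), and the lysophospholipid acyltransferase gene Lpcat3 fell by 0.69 on the log2 scale. Abcb11, the bile salt export pump, was the 1 called gene of 22 in bile acid synthesis and transport, at 82.1, 47.2, 192, 166 and 182 CPM in KO chow and 241, 291, 318, 397 and 230.3 CPM in KO NASH (log2 fold change 1.14 ± 0.31, adjusted p = 0.0484). Abcb11 lost its call with RLE scaling and in 16 of the 20 fits that left out 1 library.

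Nuclear-encoded oxidative phosphorylation genes had a median of -0.52, with 25 of 28 below 0, 10 lower and 1 higher at an unadjusted p under 0.05, and 1 called. This was Tfam, the transcription factor of mitochondrial DNA, at 101, 67.7, 68.7, 82.3 and 76.3 CPM in KO chow and 47, 49.6, 54.6, 47.1 and 43.3 CPM in KO NASH with separate groups (log2 fold change -0.71 ± 0.15, adjusted p = 0.019). With sex and the length slope as terms the median of these 28 genes was -0.25. Of 13 mitochondrially encoded genes, ND5, a subunit of complex I, was the 1 called, at 5998, 4733, 8830.2, 9748 and 9921 CPM in KO chow and 2441, 3285, 3939.8, 3783 and 2889 CPM in KO NASH (log2 fold change -1.26 ± 0.24, adjusted p = 0.0104).

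The largest count of raised genes in any list was in the collagens, where 5 of 22 tested genes were called higher and none lower. All 22 had a log2 fold change above 0 (median 1.07), and 16 were higher and none lower at an unadjusted p under 0.05. Among the 5 called genes were 3 chains of collagen VI, a microfibrillar collagen. Col6a3 (chr1:90766860-90844001) was at 4.17, 9.09, 8.32, 2.83 and 6.26 CPM in KO chow and at 31, 17.6, 13.7, 16.8 and 38.5 CPM in KO NASH (log2 fold change 1.93 ± 0.35, adjusted p = 0.00856). Col6a2 was at 3.15, 4.38, 3.51, 2.03 and 2.73 CPM and at 12.3, 7.95, 6.83, 6.56 and 12.6 CPM (log2 fold change 1.54 ± 0.40, adjusted p = 0.0421). Col6a1, outside the naming rule and picked after its values were seen, was at 5.05, 8.89, 9.85, 4.43 and 4.5 CPM and at 19.7, 12.6, 13.2, 11.5 and 20.1 CPM (log2 fold change 1.23 ± 0.34, adjusted p = 0.0484). In all 3 genes the groups were separate and KO NASH replicates 1 and 5 were the highest.

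The promoters of these 3 genes are shown because all 3 chains were called higher with all libraries in the fit. Without KO chow replicate 5, Col6a1 and Col6a2 were not called. Each runs from 250 bases before to 50 bases after a start in RefSeq (GRCm38.p6), on the minus strand, and capitals mark GGGCGG or its reverse CCGCCC, the GC box. For Col6a1 the window is chr10:76725995-76726294, for Col6a2 it is chr10:76623355-76623654, and for Col6a3 it is chr1:90843922-90844221.
Col6a1: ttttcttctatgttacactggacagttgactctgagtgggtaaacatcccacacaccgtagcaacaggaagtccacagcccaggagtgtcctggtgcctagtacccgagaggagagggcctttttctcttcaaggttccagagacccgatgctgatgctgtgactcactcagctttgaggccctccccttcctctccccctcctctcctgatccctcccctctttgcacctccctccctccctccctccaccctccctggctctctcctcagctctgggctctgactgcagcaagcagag
Col6a2: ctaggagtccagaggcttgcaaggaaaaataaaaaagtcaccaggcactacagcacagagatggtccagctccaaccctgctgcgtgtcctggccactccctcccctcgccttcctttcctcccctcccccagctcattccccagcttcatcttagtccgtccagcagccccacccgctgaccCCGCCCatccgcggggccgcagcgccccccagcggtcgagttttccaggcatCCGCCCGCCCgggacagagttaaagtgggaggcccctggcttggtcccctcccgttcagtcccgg
Col6a3: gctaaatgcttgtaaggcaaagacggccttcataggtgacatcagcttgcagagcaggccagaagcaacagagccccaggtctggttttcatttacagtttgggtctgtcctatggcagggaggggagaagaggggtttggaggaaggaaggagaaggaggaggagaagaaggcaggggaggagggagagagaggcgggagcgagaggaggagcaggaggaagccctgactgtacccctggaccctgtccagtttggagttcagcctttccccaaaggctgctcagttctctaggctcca
RefSeq gives Col6a2 another start as well, whose window holds 1 GC box. On either strand, GC boxes were found 3 times in the printed Col6a2 window, where 2 of them overlap, and 0 times in the Col6a1 and Col6a3 windows. The motif is present in 35.7% of the 32851 promoters of the table. The CCAAT box (CCAAT or ATTGG) and the TATA motif (TATAAA or TTTATA), present in 37.4% and 13.6% of all promoters, were in none of the 3 windows. These are matches of letters within the windows only.

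Col1a1, the main chain of fibrillar collagen I, was at 2.36, 8.89, 4.11, 1.09 and 2.01 CPM in KO chow and at 23.2, 17.9, 7.45, 12.8 and 28 CPM in KO NASH (log2 fold change 2.26 ± 0.53, adjusted p = 0.0287). KO NASH replicate 3 was below KO chow replicate 2. Col5a3 was at 5.51, 7.68, 7.97, 6.97 and 2.43 CPM and at 12.9, 14, 23.8, 31.6 and 11.9 CPM with separate groups (log2 fold change 1.62 ± 0.36, adjusted p = 0.022). Here KO NASH replicates 3 and 4 were the highest, unlike in the collagen VI genes. The 22 collagens summed to 713.5, 810.7, 945.8, 304.3 and 330.5 CPM in KO chow and to 932.8 to 1340 CPM in KO NASH, so the lowest sums were in KO chow replicates 4 and 5, the libraries with the negative length slope. Without all libraries of such a slope, 4 collagens were called and the median was 0.87, and with sex and length slope as terms 6 were called and the median was 0.91. Without KO chow replicate 5, or with the alike KO NASH replicates 1 and 5 added up, 2 were called, Col6a3 and Col5a3. The calls of Col1a1, Col6a1 and Col6a2 were lost in both of these fits.

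Among 29 genes of matrix remodelling, 4 were called higher and none lower (median 0.65). Loxl1, a lysyl oxidase that crosslinks elastin, was at 0.834, 1.05, 0.743, 0.799 and 0.486 CPM in KO chow and at 2.64, 3.8, 2.11, 2.35 and 4.63 CPM in KO NASH (log2 fold change 1.97 ± 0.33, adjusted p = 0.00487). Without KO chow replicate 5, or with those replicates of KO NASH added up, 1 of these 29 genes was called. The gelatinase gene Mmp2 rose by 1.58, the thrombospondin gene Thbs2 by 1.37 and the metalloproteinase inhibitor gene Timp2 by 1.16, all on the log2 scale. Of 22 genes of TGF-beta signalling, 2 were called higher and none lower (median 0.48). Neither kept the call without KO chow replicate 5 or with KO NASH replicates 1 and 5 added up, and with the length slope as a term 3 were called higher and the median was 0.25. Both encode latent TGF-beta binding proteins, which hold the growth factor in the matrix. Ltbp3 was at 1.57, 2.37, 1.58, 0.726 and 0.425 CPM in KO chow and at 4.18, 3.59, 3.17, 2.97 and 5.94 CPM in KO NASH (log2 fold change 1.54 ± 0.38, adjusted p = 0.0335), and Ltbp1 rose by 1.05 (adjusted p = 0.0465).

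**Figure D3:**
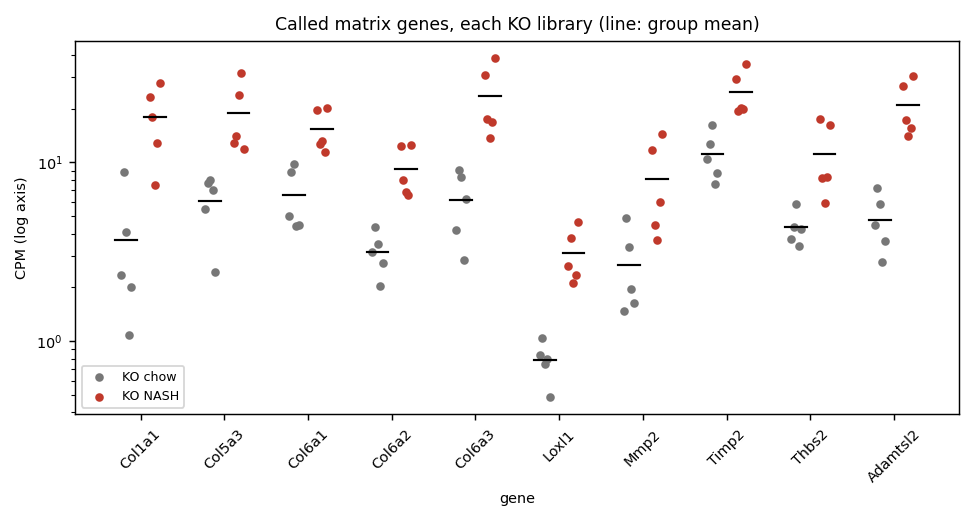
Levels of 10 called matrix genes in each KO library. The vertical axis is CPM on a log scale, grey points are the 5 KO chow libraries, red points the 5 KO NASH libraries, and black lines the group means. The groups overlap for Col1a1 and Mmp2 and are separate for the other 8 genes.

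Markers of the stellate cell and myofibroblast were read beside the matrix genes. Of 16 tested, Col1a1 was the 1 called, 5 were higher and none lower at an unadjusted p under 0.05, and the median was 0.51. Their sum was 315.5 to 1259 CPM in KO chow and 518 to 753.5 CPM in KO NASH, with KO chow replicate 5 highest, so the ranges overlapped. The receptors of platelet-derived growth factor, which stellate cells carry, were not called. Pdgfra had a log2 fold change of 0.71 ± 0.28 (adjusted p = 0.141) and Pdgfrb of 0.94 ± 0.36 (adjusted p = 0.142), and all 6 ligands and receptors of that list were above 0 (median 0.60). Among 10 cholangiocyte and ductular markers, all above 0 with a median of 0.85, the transcription factor gene Sox9 was the 1 called, at 1.16, 1.89, 0.644, 0.363 and 0.729 CPM in KO chow and 6.4, 1.62, 1.99, 3.26 and 4.13 CPM in KO NASH (log2 fold change 1.82 ± 0.45, adjusted p = 0.0326). KO NASH replicate 2 lay within the chow range for Sox9. The 10 markers summed to 47.67 to 72.54 CPM in KO chow replicates 1 to 4, to 270.8 CPM in KO chow replicate 5 and to 67.99 to 285.7 CPM in KO NASH. Without KO chow replicate 5 their median was 1.37 and Sox9 was not called. The part of these cell types in the rise of the matrix genes was not tested.

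H19, an imprinted noncoding RNA of fetal liver, was at 0.51, 2.13, 3.56, 1.23 and 2.43 CPM in KO chow and at 76.1, 24.3, 2.79, 2.64 and 78 CPM in KO NASH (log2 fold change 4.21 ± 0.93, adjusted p = 0.0208). KO NASH replicates 1 and 5 were the highest and replicates 3 and 4 lay within the chow range. With these replicates added up to make a single sample, the log2 fold change was 3.75 and H19 was not called (adjusted p = 0.0521). H19 was the 1 called gene of 6 fetal liver markers, of which 3 were above 0 and 3 below 0 (median 0.59). At an unadjusted p under 0.05, 3 were higher and none lower. The 6 summed to 21.35 to 36.23 CPM in KO chow and to 23.96 to 133.4 CPM in KO NASH, so the ranges overlapped.

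Targets of p53 rose in part. Of 11 p53 targets and cell cycle inhibitors, 3 were called higher and none lower (median 0.51). Eda2r, a receptor of ectodysplasin, was at 0.695, 1.21, 0.545, 0.508 and 0.425 CPM in KO chow and at 4.95, 1.88, 2.61, 4.55 and 5.94 CPM in KO NASH (log2 fold change 2.52 ± 0.49, adjusted p = 0.0101). Trp53inp1, a stress-induced nuclear protein, was at 51.9, 57.6, 86.5, 64.2 and 36 CPM and at 288, 90.8, 138, 112 and 250 CPM (log2 fold change 1.57 ± 0.31, adjusted p = 0.0128). Cdkn1a, the cyclin-dependent kinase inhibitor p21, was at 3.94, 11.5, 1.49, 2.69 and 2.43 CPM and at 31.1, 5.21, 13.7, 20.7 and 33.5 CPM (log2 fold change 2.23 ± 0.58, adjusted p = 0.0404). Its groups overlapped, since KO chow replicate 2 was above KO NASH replicate 2, while those of Eda2r and Trp53inp1 were separate. By edgeR none of 24 cell cycle genes was called, with 3 higher and 9 lower at an unadjusted p under 0.05 (median -0.53). The number called lower was 3 with the length slope as a term (median -0.32), 5 with sex and length slope (median -0.25) and 6 without the libraries of negative slope (median -0.29).

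In insulin, PI3K and AKT signalling, 2 of 27 genes were called higher and 1, Pik3c2g, lower (median 0.19). Foxo3, a transcription factor restrained by AKT, rose by 1.02 and Trib1, a pseudokinase, by 0.79 on the log2 scale. Among 10 output transcription factors of the clock, Tsc22d3, which glucocorticoids induce, was the 1 called, at 14.1, 17.1, 43.6, 29.2 and 19 CPM in KO chow and 74.3, 69.2, 25.6, 64.9 and 69.8 CPM in KO NASH (log2 fold change 1.31 ± 0.31, adjusted p = 0.0301). KO NASH replicate 3 was the lowest of its group and lay within the chow range. None of 15 core clock genes was called, with 6 higher and 1 lower at an unadjusted p under 0.05, and Bhlhe40 and Arntl had log2 fold changes of 1.25 ± 0.36 (adjusted p = 0.0575) and 1.11 ± 0.32 (adjusted p = 0.0609). The labels give no time of day for the sampling. Of 26 genes of the unfolded protein and integrated stress responses none was called (median 0.42), and the kinase gene Eif2ak3 had the smallest p, with a log2 fold change of 0.78 ± 0.22 (adjusted p = 0.0566).

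The 12 tested markers of the Kupffer cell, the resident macrophage of the liver, were all below 0, with a median of -1.21 and 10 lower at an unadjusted p under 0.05, but none was called. The phosphatidylserine receptor gene Timd4 was at 9.68, 13.1, 17.6, 25.9 and 13.6 CPM in KO chow and at 6.74, 4.92, 7.14, 4.79 and 6.44 CPM in KO NASH (log2 fold change -1.41 ± 0.42, adjusted p = 0.071), and Cd5l, a secreted macrophage protein, was at 174, 166, 263, 311 and 431 CPM and at 141, 127, 93.6, 86.4 and 120.1 CPM (log2 fold change -1.24 ± 0.40, adjusted p = 0.0866). Both genes had separate groups. The 12 markers summed to 596.9, 612.9, 1062, 1354 and 1967 CPM in KO chow replicates 1 to 5 and to 440.4 to 576.9 CPM in KO NASH. The median was -0.81 without KO chow replicate 5 and -0.57 with sex and length slope as terms. The highest sums were in KO chow replicates 4 and 5. Without the libraries of length slope below -0.2, which include both of these, the median was -0.53 and 1 marker was called lower. The cause of this shift was not tested. In WT the median of the same 12 markers was -0.06, and no difference was called among them.

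Other immune groups held few calls. Of 15 markers of lipid-associated macrophages none was called (median 0.65), and Gpnmb, a glycoprotein of lipid-laden macrophages, was at 1.95, 7.08, 1.53, 0.436 and 2.55 CPM in KO chow and at 15.3, 3.8, 7.88, 5.08 and 16.2 CPM in KO NASH (log2 fold change 1.81 ± 0.63, adjusted p = 0.106). Monocyte and dendritic cell markers summed to 83.75 to 305.2 CPM in KO chow replicates 1 to 4, to 1077 CPM in KO chow replicate 5 and to 101.1 to 153.7 CPM in KO NASH. Their median was -0.78, and 0.21 without KO chow replicate 5. Of 29 chemokines and receptors, Cx3cl1, the ligand of the fractalkine receptor, was called higher, at 0.278, 0.764, 0.693, 0.436 and 0.729 CPM in KO chow and 1.96, 1.71, 1.18, 1.01 and 2.45 CPM in KO NASH (log2 fold change 1.50 ± 0.39, adjusted p = 0.0405), and Cxcl13 lower. H2-Ab1, a chain of MHC class II, was the 1 called gene of 6 in its list, at 0.787, 0.684, 0.792, 1.09 and 1.34 CPM and 1.49, 4.57, 2.73, 2.06 and 4.53 CPM (log2 fold change 1.72 ± 0.43, adjusted p = 0.0363). Of 36 interferon-stimulated genes Cmpk2 was the 1 called, rising by 1.01 on the log2 scale. The T cell receptor gene Trac and the immunoglobulin genes Ighm and Igkc had 0 counts in all 10 KO libraries, and no tested marker of T, NK, B or plasma cells was called. None of the 24 inflammatory cytokine and sensor genes was called by edgeR, and 0 were higher and 4 lower at an unadjusted p under 0.05.

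Il1r1, the receptor of interleukin 1, was at 23.2, 27.1, 24.8, 19.1 and 19.4 CPM in KO chow and at 86.4, 60, 34.5, 87.3 and 84.7 CPM in KO NASH with separate groups (log2 fold change 1.64 ± 0.31, adjusted p = 0.0101). With the apolipoprotein gene Saa4, which rose by 2.05 on the log2 scale, it made up the 2 called genes of 21 in the acute-phase list. Saa4 lost its call with RLE scaling and in 18 of the 20 fits that left out 1 library. The median of that list was -0.43, and it was 0.16 without KO chow replicate 5, 0.45 with the length slope as a term, -0.37 with sex as a term and 0.55 with both terms, so its direction depended on that library and on the length slope. In iron handling 2 of 16 genes were called higher and none lower, and both lost the call without KO chow replicate 5. Hfe2, which encodes hemojuvelin, the coreceptor that raises hepcidin, was at 34.5, 35.7, 52.2, 29.1 and 25 CPM in KO chow and at 64.9, 72.3, 109, 91.7 and 57.5 CPM in KO NASH (log2 fold change 1.16 ± 0.27, adjusted p = 0.0262), and the metal importer gene Slc39a14 rose by 1.06 on the log2 scale.

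Drug-metabolising genes were called singly. Of 13 Cyp2b and Cyp3a enzymes, 12 were below 0 and 1 above (median -1.45, and -0.47 with sex and length slope as terms). Of 28 sulfotransferases and glucuronosyltransferases, 22 were below 0 and 6 above (median -0.60, and 0.03 with both terms). Gstm3, a glutathione transferase, was at 2.32, 2.17, 1.98, 1.38 and 0.972 CPM in KO chow and at 6.86, 7.57, 5.4, 10.3 and 9.61 CPM in KO NASH (log2 fold change 2.16 ± 0.45, adjusted p = 0.0171), the 1 called gene of 28 in glutathione and NRF2 metabolism. Fmo4, a flavin-containing monooxygenase, was at 34.6, 30.5, 23.2, 27.7 and 39.4 CPM and at 13.5, 17.9, 10.3, 10.9 and 13.3 CPM (log2 fold change -1.24 ± 0.26, adjusted p = 0.0171). Cyp4a32 fell by 1.32 and Cyp3a59 fell by 2.30 on the log2 scale, both with overlapping groups. The call of Cyp3a59 was lost in 19 of 34 alternatives, among them the fit with sex as a term (-1.68, adjusted p = 0.0940), the fits without KO chow replicate 3 (-2.08) or 5 (-1.70), which are the females of that group, and the male libraries (-0.85). Gstm3, Cyp4a32 and Cyp3a59 belong to families whose close copies can share reads.

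Genes with female-biased levels in mouse liver were read beside the sex of the libraries. Cyp17a1, a steroid hydroxylase, was at 30.1, 15, 526, 68.8 and 1429 CPM in KO chow and at 9, 81.5, 10.6, 11.1 and 8.84 CPM in KO NASH, and the highest library of each group was a female (log2 fold change -4.09 ± 1.04, adjusted p = 0.037). In the male libraries alone the log2 fold change of Cyp17a1 was -1.94 and was not called. Cyp17a1 kept its call with sex as a term and with sex and length slope as terms, and lost it with the length slope alone. The 14 female-biased liver genes had a median of -2.42. It was -1.52 with sex as a term and -0.59 in the male libraries for the 12 tested there. The sum of the 14 genes was 12010 CPM in KO chow replicate 5 and 277.7 to 2776 CPM in the other 9 KO libraries. None of them was called.

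**Figure D4:**
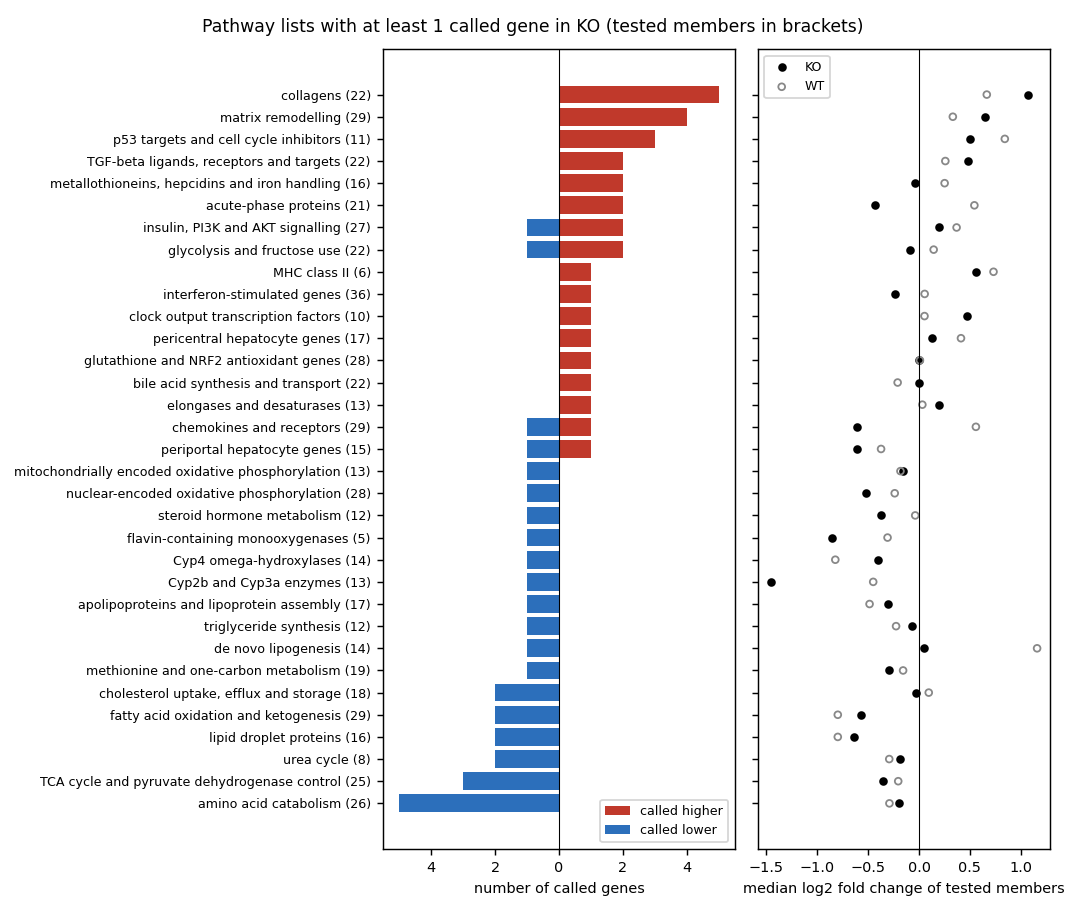
The pathway lists with at least 1 called gene in KO. Left, bars count the genes called higher (red) or lower (blue) on the NASH diet, with the number of tested members in brackets. Right, the median log2 fold change of the tested members in KO (filled) and WT (open). The collagens have 5 genes called higher and a median of 1.07, and amino acid catabolism has 5 called lower and a median of -0.20.

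The diet effect in KO was set beside that in WT, which has its own 5 chow and 5 NASH libraries. In WT the diet raised 389 genes (2.69%) and lowered 468 (3.24%). Of the genes raised in KO, 54 of 255 were also called higher in WT, which is 54 of the 389, and of those lowered in KO, 78 of 220 were called lower in WT, which is 78 of the 468. A call in one genotype and not in the other does not show that the effects differ. The difference itself, the diet effect in KO minus that in WT, was called for 20 genes (0.139%), of which 8 were positive and 12 negative. In this data set WT chow held 5 males and WT NASH 4 females and 1 male (replicate 4), so sex moved with diet in WT. The length slope was -0.25, -0.26 and -0.34 in WT chow replicates 3, 4 and 5 and -0.26 in WT NASH replicate 4. In the other WT libraries it was 0.01 to 0.16, so the slope was also spread unevenly over the WT groups. With the length slope as a term 190 differences were called, and the part of the slope in the WT values was not tested.

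Many of the changes in KO were also called in WT in the same direction, with the difference not called, which does not show the effects to be equal. Slc13a3 had a log2 fold change of 2.41 in WT, Ppp1r3b of 2.30, Hbb-bs of -2.31, Gpcpd1 of -2.13, Ehhadh of -2.56, Plin2 of -1.81, Asl of -1.35 and Dgat1 of -0.89, and each of these was called in WT. For Ehhadh the difference was 0.19 ± 0.65 (adjusted p = 0.974). In Elovl6, which was at a log2 fold change of -0.18 in WT, the difference was -1.92 ± 0.41 and missed the threshold (adjusted p = 0.0747). For Adamtsl2 and Dkk3, at 0.36 and 0.11 in WT, the differences were 1.76 and 1.67 (adjusted p = 0.109 and 0.115).

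Pik3c2g was the gene among the 12 most lowered whose diet effect differed from WT by the test of the difference. In WT it was at 4.44, 4.44, 2.99, 5.98 and 3.26 CPM on chow and at 5.68, 5.1, 3.87, 2.21 and 4.2 CPM on the NASH diet, with a log2 fold change of 0.01. On chow every KO library but replicate 3 was above every WT library, and on the NASH diet every KO library was below WT replicates 1, 2, 3 and 5, while WT replicate 4 lay within the KO range. The difference was -2.28 ± 0.40 (adjusted p = 0.0315), and it was not called with sex as a term (-2.18, adjusted p = 0.178). Leaving out 1 library ended this call in 9 of 20 fits.

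Tppp, which encodes a tubulin polymerisation protein, was at 9.31, 6.27, 11.9, 7.84 and 9.11 CPM in KO chow and at 16.3, 31.5, 17.6, 25.9 and 16.9 CPM in KO NASH with separate groups (log2 fold change 1.28 ± 0.24, adjusted p = 0.0091). In WT it was at 18.1, 17.8, 17.7, 14.6 and 10.6 CPM on chow and at 10.4, 12.6, 14, 6.91 and 11.4 CPM on the NASH diet. The difference was 1.78 ± 0.33 (adjusted p = 0.0348) and 2.42 with sex as a term (adjusted p = 0.00716). It was lost in 10 of the 20 fits that left out 1 library.

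In 4 further genes the diet effect was larger in WT than in KO in the same direction. Cidec, a lipid droplet fusion protein, was at 370.3, 442, 99.9, 211 and 352 CPM in KO chow and at 121, 77.6, 146, 104 and 124 CPM in KO NASH, against 20.3, 11.5, 67.2, 70.6 and 41.6 CPM in WT chow and 0.904, 0.534, 0.787, 0.588 and 1.61 CPM in WT NASH. All WT NASH values of Cidec were below every other value in the series, and the difference was 4.17 ± 0.66 (adjusted p = 0.0111). The water channel gene Aqp4 was at 15.7, 18.4, 27.9, 22.3 and 24.9 CPM in KO chow and at 10.5, 10.4, 5.22, 16.6 and 10 CPM in KO NASH, and its log2 fold changes were -1.05 in KO and -3.82 in WT (difference 2.78 ± 0.41, adjusted p = 0.00499). The formin gene Fmn1 had 0.77 in KO and 2.89 in WT (difference -2.12 ± 0.30, adjusted p = 0.00499). Hmgcs1, the synthase that feeds cholesterol synthesis, was at 51.9, 71.4, 60, 44.9 and 66 CPM in KO chow and at 55, 85.6, 202, 74.7 and 45 CPM in KO NASH, with log2 fold changes of 0.65 in KO and 3.52 in WT (difference -2.87 ± 0.53, adjusted p = 0.0348). With sex as a term Aqp4 and Fmn1 kept the call and Cidec and Hmgcs1 lost it (adjusted p = 0.178 and 0.283).

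The cholesterol synthesis list as a whole had 18 of 22 genes called higher in WT and a median of 1.99 there, against 0 called and 0.51 in KO, and Hmgcs1 was the 1 member whose difference was called. In de novo lipogenesis 5 of 14 genes were called higher in WT (median 1.16) and none in KO, and 1 difference was called. This was Acly, ATP citrate lyase, picked after its values were seen, with log2 fold changes of 0.35 in KO and 1.74 in WT (difference -1.39 ± 0.28, adjusted p = 0.0452). With sex as a term 1 negative difference was called, that of Fmn1, so the negative difference of Acly lost its call. Fatty acid oxidation had 12 of 29 genes called lower in WT (median -0.80) and 2 in KO, and no difference was called there. The collagens had 1 of 22 genes called higher in WT (median 0.67) and 5 in KO, and no difference was called there either.

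Cyp2b9, a cytochrome P450 with female-biased levels in mouse liver, had the largest difference of the genes reported here. It was at 2.19, 0.0542, 0.0995, 0.95 and 0.277 CPM in WT chow and at 581, 796, 758, 0.588 and 562 CPM in WT NASH, where the only male, replicate 4, was the low one. In KO, Cyp2b9 was at 39.7, 6.31, 1041, 408 and 1008 CPM on chow and at 281, 574, 303, 629 and 290.5 CPM on the NASH diet. The difference was -9.79 ± 1.82 (adjusted p = 0.0348) and was not called with sex as a term. In the male libraries alone it was 1.66, a value that rests on 1 WT NASH library assumed to vary like the other groups.

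**Figure D5:**
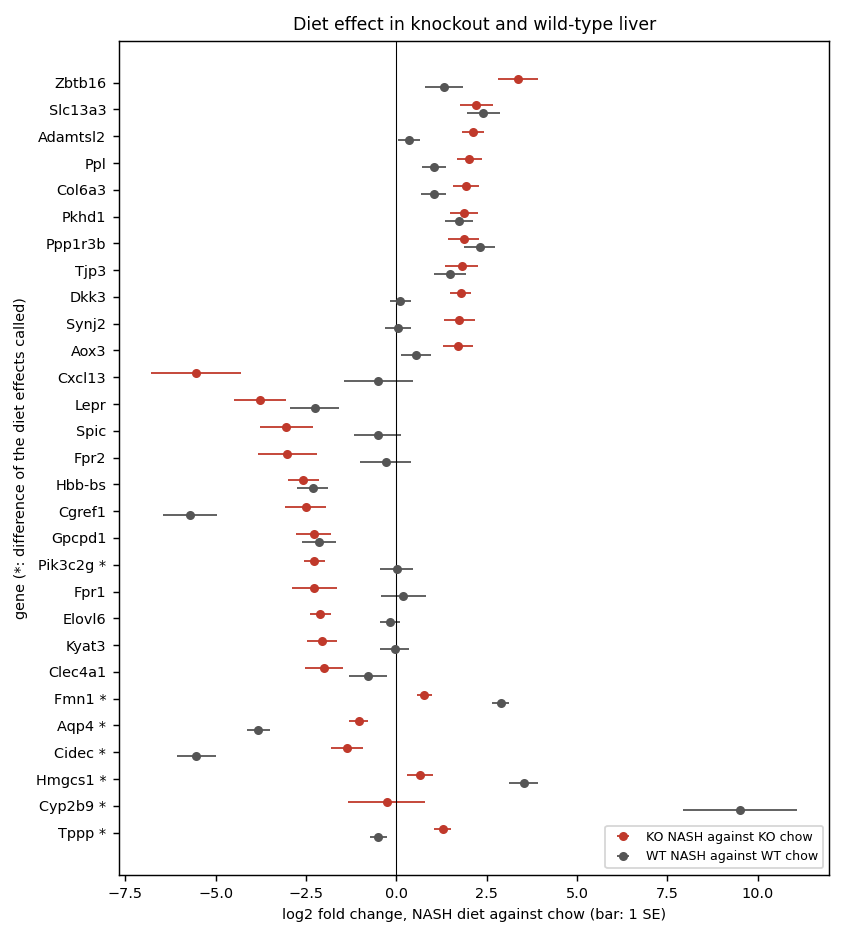
Log2 fold change of NASH diet against chow in KO (red) and WT (grey), with bars of 1 SE, for the 23 reported most changed genes and the genes named by the difference. An asterisk marks a called difference. Pik3c2g has -2.27 in KO and 0.01 in WT, and Cyp2b9 has the widest bar in WT.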

How the data were processed

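RNA-seq counts were analysed for 20 mouse livers. The deposited values are raw read counts per gene symbol, 1 column per library, which the authors made with alignment by HISAT2 2.0.4 to GRCm38, per the submitters' processing notes. Libraries came from total RNA with a RIN above 8, per the labels' protocols. For the counting program, the annotation and the use of strand, the entry is: not given in the sources used here. Thus reads of a gene and an antisense partner cannot be told apart, and near-identical genes can share reads.

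One model was fitted to all 20 libraries with 4 coefficients, 1 per group of genotype and diet, using edgeR 4.0.16 (TMM scaling, filterByExpr with a minimum count of 10, quasi-likelihood F test) in R 4.3.3. All groups entered so that they share one estimate of the spread. Of 46095 symbols, 26350 had a count and 14440 were tested, which held 99.91% of counts, and the common coefficient of biological variation was 39%. Calls rest on p-values adjusted by Benjamini-Hochberg over all tested genes, with 0.05 as the bound. SE was derived from the F test, as the absolute log2 fold change fitted without a prior count, divided by the square root of F. The printed log2 fold changes carry the prior count of edgeR. Sex was read from Y-linked counts, with at least 100 taken as male (13 male and 7 female libraries). The length slope is that of each library's deviation in log2 CPM on log2 transcript length over 9518 genes. Lengths were found for 13502 tested genes (93.5%). Coordinates and promoters come from RefSeq (GRCm38.p6).

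Genes named are Pck1, the 12 most raised and 12 most lowered called genes whose mean over the 10 KO libraries reached 5 CPM and no overlap between groups (predicted and clone names passed over), up to 4 called members per list by size or, where none was called, up to 2 by smallest p, and the 8 genes of smallest p in the difference between genotypes. Some genes that the rule would name are not reported here. The members and the gene lists were chosen with earlier results of these data known. Alternatives were RLE scaling, other filters, other sets of libraries, added terms, DESeq2 1.42.0 and limma 3.58.1. On simulated counts (13951 genes, 200 of them changed 4-fold) the test recovered 79% of changed genes for KO NASH against KO chow with 4.82% false calls, and 60.5% for the difference with 4.72% false calls. These counts were drawn independently for every group from the KO chow means with the fitted spread. They held no effect of sex or length slope and no outlying or alike libraries, so the shares do not measure false calls in the real data.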

Additional observations from a re-analysis of the deposited data

Results flagged for a closer look

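Single libraries stood apart from the other 4 of their group, by Dixon's bound of 0.71 for the gap over the range, in 12 of the 158 groups checked, and chance alone passes about 1 in 20 groups. KO chow replicate 5 was the highest in 7 of them. It was at 184.1 CPM for Cxcl13 (others 2.779 to 36.01), 55.9 for Spic (2.779 to 10.31), 42.78 for Fpr2 (2.223 to 7.913) and 68.42 for Fpr1 (5.991 to 17.57). It was at 34.21 CPM for Clec4a1 (3.981 to 10.16), 88.05 for Cgref1 (20.94 to 40.25) and 800.0 for Ftcd (458.6 to 553.7). KO chow replicate 2 was the highest for Cdkn1a, at 11.46 CPM (1.485 to 3.937). In KO NASH, replicate 3 was the highest for Ehhadh, at 3734 CPM (1694 to 1844), and for Fpr1, at 5.96 CPM (3.833 to 4.398), and the lowest for Tsc22d3, at 25.64 CPM (64.87 to 74.32). KO NASH replicate 2, the female of its group, was the highest for Cyp17a1, at 81.47 CPM (8.842 to 11.07).

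The diet effect was called different between KO and WT, by the test of the difference in edgeR, for 7 genes reported from it. With sex as a term Fmn1, Aqp4 and Tppp kept this call, and Cidec, Pik3c2g, Hmgcs1 and Cyp2b9 lost it. The difference of the log2 fold changes, KO minus WT, was -2.12 for Fmn1, 2.78 for Aqp4, 4.17 for Cidec, -2.28 for Pik3c2g, -2.87 for Hmgcs1, -9.79 for Cyp2b9 and 1.78 for Tppp.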

How the results depend on the processing

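The count of genes called in KO moved by over 1.5 times from 475 under most alternatives. It was 253 with no filter on low counts, 314 with a mean of at least 5 CPM, 919 with the length slope as a term, 1353 with sex and length slope as terms, 59 in the male libraries, 1174 without the libraries of length slope below -0.2, 180 with KO NASH replicates 1 and 5 summed, 1303 by DESeq2 and 1835 by limma voom with quality weights. In the female libraries edgeR called 0 genes, with 1263 at an unadjusted p under 0.05, but KO NASH then held 1 sample, assumed to vary like the other groups, so this count says nothing about stability. Leaving out 1 library gave 147 to 792. It stayed within 1.5 times with RLE scaling (487), only the groups compared (324), sex as a term (574) and a fold threshold (329). A count within this bound does not mean the same genes. With only the groups compared, 151 genes were called higher and 173 lower, and 260 of the 324 were shared with the 475.

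The count of called differences, 20 in all, was 12 with a mean of at least 5 CPM, 4 with sex as a term, 190 with length slope as a term, 69 with both terms, 5 in the male libraries (where WT NASH holds 1 sample, assumed to vary like the others), 79 without the libraries of low slope, 4 with replicates 1 and 5 summed, 189 by DESeq2, 1949 by voom and 4 to 144 with 1 library left out, 144 being without WT NASH replicate 4. The causes were not tested. With that 1 sample the difference turned to 1.66 for Cyp2b9.

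Same-numbered KO libraries did not deviate together (correlations 0.11, -0.41, -0.16, 0.15 and -0.17, against -0.38 to 0.35 for the other pairs). The labels do not say whether a number marks a shared litter, day or batch, and these correlations cannot tell. With the replicate block 535 genes were called in KO, 405 of them shared with the 475, and 4 differences.

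Of the 78 called genes reported none changed direction. DESeq2 kept 78, RLE scaling 76, sex and length slope as terms 71, voom 69 and the libraries without low slope 64. The fit on only the groups compared kept 52, and that with replicates 1 and 5 summed kept 40. The fit without KO chow replicate 5 kept 39 and the male libraries 11. Depth limits lowly expressed genes such as Eda2r, Loxl1 and H2-Ab1, and sex and diet cannot be told apart in most of WT.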
